A study of Homo sapiens with 14 samples.

Results

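The comparison described here set the RBFOX2 libraries against the Buffer-only libraries at an input of 1 ng RNA. Its members are 6 of the 14 libraries of the series, 3 per group, chosen by title. All were made from HEK293T cells, an established human embryonic kidney line that the cell line label writes as HEK293XT, grown on slides and fixed in methanol. The RBFOX2 libraries received a rabbit antibody against RBFOX2 and then APO1-Nb, a fusion of the cytosine deaminase APOBEC1 to a nanobody that binds rabbit IgG. The Buffer-only libraries received neither antibody nor enzyme, so the comparison joins the effect of the antibody with that of the enzyme, and the groups alone cannot tell the contributions apart. For this reason the values of the 1 Enzyme-only library at 1 ng, which received APO1-Nb without antibody, are given beside the comparison, without a test. The replicates were separate slides of 1 cell line and are called technical by the study, so the p-values measure spread between slides only.

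RBFOX2 is an RNA-binding protein that regulates alternative splicing and binds the sequence UGCAUG in introns and 3'UTRs. APOBEC1 turns cytosine into uracil in single-stranded RNA, with a known preference for a cytosine that follows A or U, so an antibody-bound enzyme leaves C-to-U edits in the RNA near the protein. In sequencing, such an edit is a read with T at a genomic C. Every deposited site gives a pair of numbers, the reads with the edit (edited reads) and all reads over the position (covering reads), and their quotient is the edit fraction. Sites were called separately in each library, so a position absent from a library was not called there, and its covering reads in that library are not known. The lists held 40162 to 42589 sites in the RBFOX2 libraries and 20330 to 22543 in the Buffer-only libraries, and gene-strand sites were covered by 1198851 to 1297720 and 389002 to 447283 reads in sum. The total reads of a library are not given in the lists. A gene-strand site lay in a gene on its own strand, and an opposite-strand site lay in a gene on the other strand only.

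The 9 target sites below were picked for lying near UGCAUG and do not stand for all positions that separate the groups. They lay within 15 nt of the centre of UGCAUG, were called in all 3 RBFOX2 libraries and in no Buffer-only library, and were among those with the most edited reads of 21 such positions, with at most 1 per gene. Sequences are from hg38, 5′ to 3′ on the strand of the gene, with the edited cytosine and the motif in capitals (T stands for U). The windows were PRDX3 at chr10:119167923-119167952 (minus strand), ZNG1E at chr9:65681915-65681944 (plus), CARNMT1 at chr9:74981083-74981112 (minus), CDH2 at chr18:27951336-27951365 (minus), SPIN1 at chr9:88477947-88477976 (plus), TOMM20 at chr1:235111168-235111197 (minus), ATP13A3 at chr3:194403052-194403081 (minus), SERF1B at chr5:70032568-70032597 (plus) and BCOR at chrX:40072057-40072086 (minus). By Gencode 44 all but the BCOR position, which is in a noncoding exon, were in a 3'UTR.
PRDX3: gagtgaCttaactgatcaTGCATGatccct
ZNG1E: atctctagTGCATGaaagtctCatatgtaa
CARNMT1: aagcttcatgtCTGCATGaaatttcctata
CDH2: aggtttttTGCATGtttatatCtttcgtta
SPIN1: gtaactgaCtaaaatTGCATGttaaagata
TOMM20: tgaatttTGCATGcttgcctgaCttagtat
ATP13A3: atattcaTGCATGcaattttgaCatatcta
SERF1B: ataaaacaCtaaccaTGCATGtgacatatt
BCOR: gtatctaaagaCTGCATGacgtttacctat

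In CARNMT1 and BCOR the edited cytosine directly preceded the motif. At the PRDX3 position, in the gene of a mitochondrial peroxidase, 7, 9 and 6 of 448, 475 and 474 reads were edited in the 3 RBFOX2 libraries. At the CARNMT1 position, in the gene of a histidine methyltransferase, the edited reads were 8, 5 and 2 of 52, 36 and 32. At the CDH2 position, in the gene of N-cadherin, 4 reads were edited in each library, of 49, 78 and 69. The SPIN1 position was uneven, with 9, 2 and 1 edited reads of 50, 45 and 51. None of these 9 positions was called in the Enzyme-only library. ZNG1E and SERF1B have near-identical copies elsewhere in the genome, and the gene of origin of their reads is uncertain. These positions were chosen for being called in one group only, so their counts are a description.

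A second set of positions was called in all 6 libraries, and the 4 with the most edited reads on the gene strand serve as controls. The edited cytosine is in capitals. They lay in the coding sequence of MT-CYB at chrM:15245-15274 (plus) and of MT-ND5 at chrM:12686-12715 (plus), in the 3'UTR of PDIA6 at chr2:10784036-10784065 (minus) and in the 5'UTR of HSPE1 at chr2:197500388-197500417 (plus).
MT-CYB: ggctactcagtagaCagtcccaccctcaca
MT-ND5: tcttcaaatatctaCtcatcttcctaatta
PDIA6: tgaattgttgtagcCggtgaattgagtcgt
HSPE1: tttgcggcgctacaCtagagcagagtacga

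At the MT-CYB position 2293, 2224 and 2295 reads were edited in the RBFOX2 libraries and 2067, 2114 and 2027 in the Buffer-only libraries. At the MT-ND5 position they were 425, 394 and 455 against 359, 444 and 420. At the PDIA6 position, in the gene of a disulfide isomerase, the edited reads were 332, 296 and 324 against 262, 366 and 367, and at the HSPE1 position, in the gene of a mitochondrial chaperonin, 161, 177 and 171 against 196, 188 and 213. In edited reads the groups overlapped at MT-ND5 and PDIA6 but not at MT-CYB, where RBFOX2 was higher, nor at HSPE1, where it was lower. The edit fractions overlapped at each of the 4 positions. At MT-CYB they were 30.9%, 29.7% and 30.2% against 30.6%, 29.3% and 29.7%, of 7412, 7476 and 7590 against 6744, 7207 and 6820 covering reads. At HSPE1 they were 65.7%, 55.7% and 64.8% against 62.8%, 57.1% and 63.0%. The Enzyme-only library had 2268, 398, 326 and 183 edited reads at the 4 positions.

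On the gene strand the RBFOX2 libraries held 60544, 60702 and 65201 edited reads and the Buffer-only libraries 22049, 24810 and 25345. The means were 62149 ± 2644 and 24068 ± 1769 (SD, n = 3 each), a ratio of 2.58, with no overlap between the groups. The exact two-sided permutation test gave p = 0.1, the smallest value that 3 against 3 libraries can reach, and every group difference below that is said not to overlap has this p. The Enzyme-only library held 54979. On the opposite strand the edited reads did not separate, with 24346, 25377 and 25842 in RBFOX2 against 24346, 26239 and 26881 in Buffer-only (exact permutation p = 0.5, two-sided). At positions that libraries of both groups called, on any strand, the edited reads were 22591 ± 704 and 22810 ± 1154 (SD, n = 3 each, overlapping). The 447 positions called in all 6 libraries had 18009 ± 499 and 18303 ± 833 edited reads, at pooled edit fractions of 17.5% in both groups. Sites in no gene held 3569 ± 243 and 2745 ± 214 edited reads, without overlap, so nearly all of the added edited reads were on the gene strand at positions called in one group only.

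**Figure D1:**
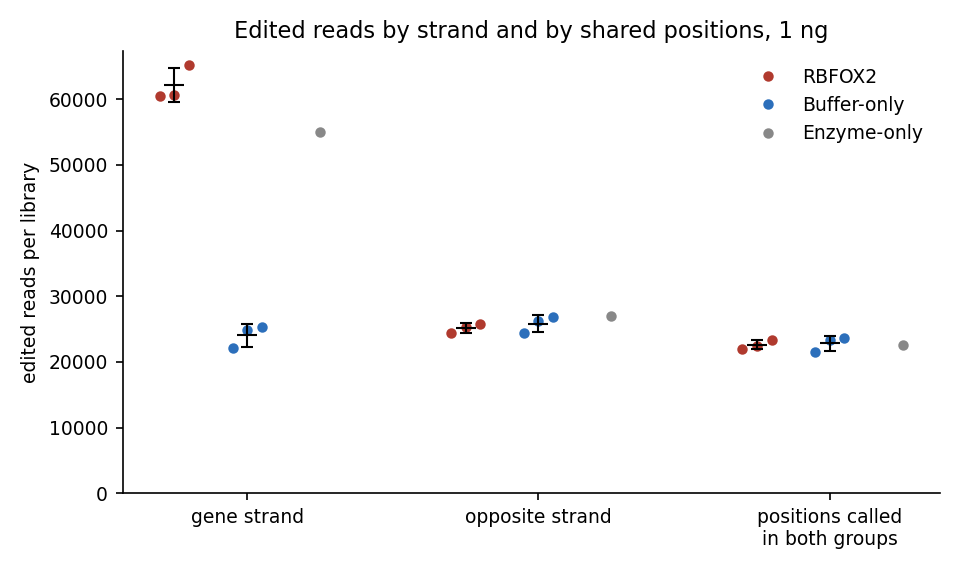
Edited reads per library (vertical axis) on the gene strand, on the opposite strand and at positions called in both groups. Points are libraries, bars are the mean and SD of 3, and the single Enzyme-only library has no bar; only the gene-strand values separate RBFOX2 (60544 to 65201) from Buffer-only (22049 to 25345).

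The number of edited reads at a site separated the groups less simply. The gene-strand sites carried 1.99 ± 0.061 edited reads each in RBFOX2 and 2.03 ± 0.041 in Buffer-only (SD, n = 3 each, exact permutation p = 0.5). Without the positions of both groups the order turned, to 1.80 against 1.53, and the groups no longer overlapped. The share of sites with a single edited read was 54.8% ± 1.73 in RBFOX2 and 65.5% ± 1.12 in Buffer-only, and the shares with 3 to 4 edited reads were 16.2% ± 0.974 and 11.1% ± 0.542, neither of them overlapping. Sites with 10 or more edited reads had the opposite order, at 0.434% of RBFOX2 sites and 0.802% of Buffer-only sites. Repeated edits separated the groups within each class of coverage under 100 reads. At 5 to 9 covering reads 38.5% ± 1.58 of RBFOX2 sites and 28.9% ± 0.678 of Buffer-only sites had at least 2 edited reads, and at 50 to 99 covering reads the shares were 54.2% ± 1.86 and 41.7% ± 0.923. On the opposite strand the same shares were 27.1% and 26.7% at 5 to 9 reads and 41.1% and 40.8% at 50 to 99 reads, with overlapping groups. A site with 1 edited read was never called above 69 covering reads in these 6 libraries, so the shares are bound to 100% at 100 or more reads.

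**Figure D2:**
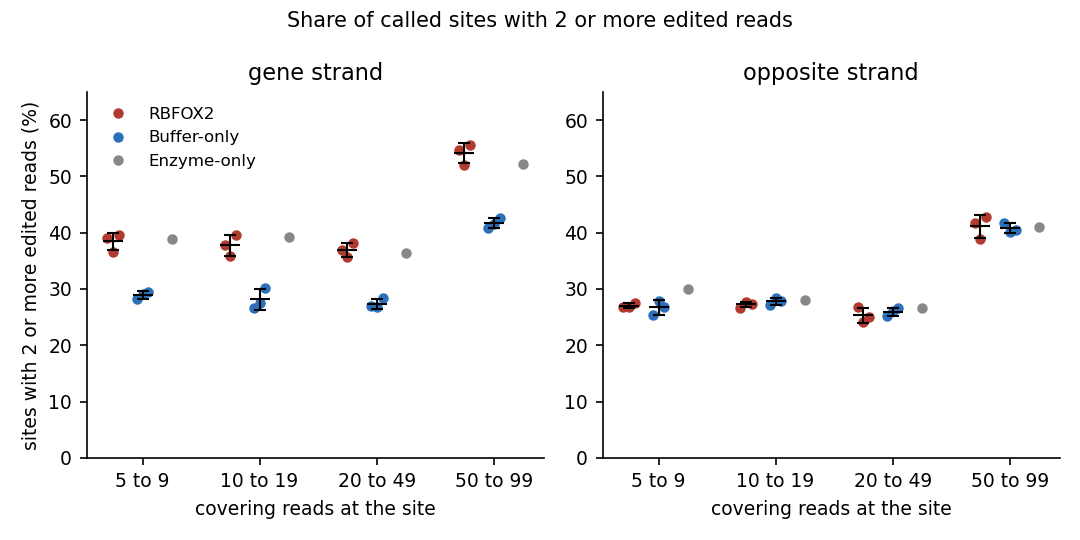
Share of called sites with at least 2 edited reads (vertical axis, %) by covering reads at the site (horizontal axis) on the gene strand (left) and the opposite strand (right), with points for libraries and bars for mean and SD of 3. On the gene strand every RBFOX2 library lies above every Buffer-only library in each class, for example 38.5% against 28.9% at 5 to 9 reads, while the opposite-strand panel shows overlapping groups.

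The edit fraction differed between the groups in opposite directions at low and at high coverage. At 5 to 9 covering reads the pooled gene-strand fraction was 23.9% ± 0.434 in RBFOX2 and 21.6% ± 0.268 in Buffer-only (SD, n = 3 each), and at 100 or more it was 2.71% ± 0.0272 and 4.58% ± 0.157, neither of them overlapping. At 50 to 99 reads the groups overlapped. Over all coverages the pooled gene-strand fraction, all edited reads over all covering reads, was 5.02% ± 0.0313 in RBFOX2 and 5.63% ± 0.0642 in Buffer-only. Without the positions of both groups it was 4.64% and 4.55%, with overlapping groups. The median fraction of a site was 6.67% in each RBFOX2 library and 6.45%, 6.25% and 6.67% in the Buffer-only libraries (exact permutation p = 0.4). By region the median differed most in introns. Within 500 nt of an exon it was 14.3% in every RBFOX2 library against 11.2% ± 0.0916 in Buffer-only, at median coverages of 10 and 11.3 reads. The Enzyme-only library had 14.3% there as well. With 1 library left out, RBFOX2 minus Buffer-only was 1.46 to 2.21 points in deeper introns, 0.35 to 0.49 in 3'UTRs and 0.17 to 0.40 in 5'UTRs. It was 0.21 to 0.59 points in noncoding exons and -0.090 to 0.16 in coding sequence. In FLARE clusters, which are stretches of enriched editing called by the authors, the median edit fraction over all cytosines was 0.932% ± 0.0133 against 0.663% ± 0.0165, at median depths of 49 and 51.8 reads. The denominator of that fraction counts every target cytosine of the cluster, edited or not, and is not the one used for sites.

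Around UGCAUG the edited reads differed by a ratio of 6.42, against 2.58 over all gene-strand positions. Within 50 nt of the motif's centre on the same strand, the RBFOX2 libraries had 3843, 3542 and 4183 edited reads and the Buffer-only libraries 506, 634 and 661. These were 6.20% ± 0.317 and 2.49% ± 0.168 of gene-strand edited reads (SD, n = 3 each), and the Enzyme-only library had 1545, or 2.81%. The reads were also placed differently. From 0 to 25 nt downstream of the motif, RBFOX2 had 1202 ± 102 edited reads against 91.7 ± 18.0 in Buffer-only and 330 in Enzyme-only, while from 0 to 25 nt upstream it had 976 ± 81.0 against 228 ± 43.7 and 472. Of the edited reads within 50 nt, 53.5% ± 1.22 were downstream of the motif in RBFOX2 and 34.7% ± 0.608 in Buffer-only, with 44.9% in Enzyme-only. Per nucleotide and per 10000 gene-strand edited reads, RBFOX2 reached 7.73 just downstream and came down to 2.84 and 2.92 at 150 to 200 nt on either side. At that distance upstream RBFOX2 was still above Buffer-only, at 1.73.

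**Figure D3:**
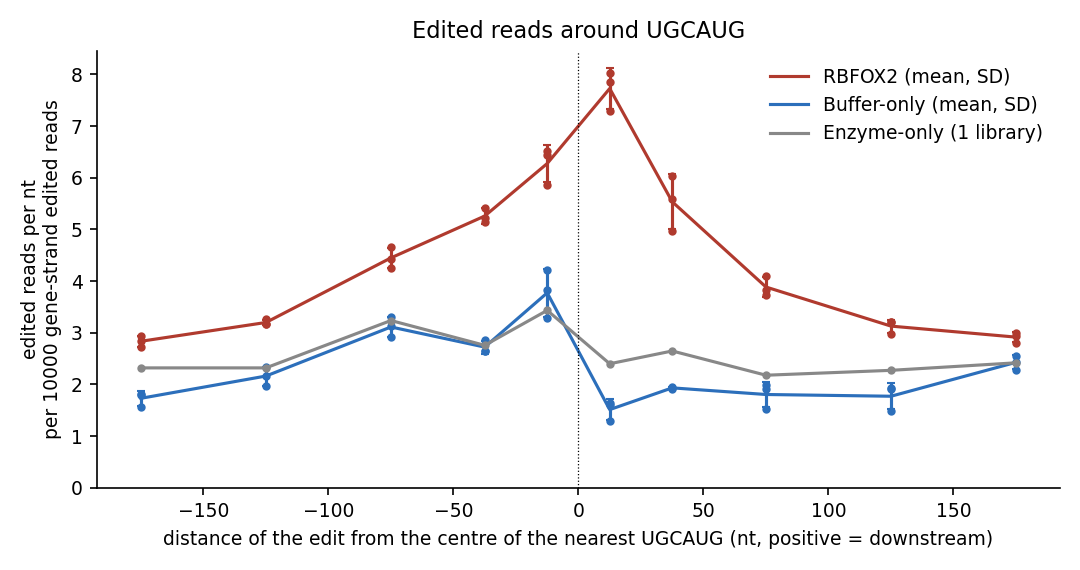
Edited reads per nucleotide per 10000 gene-strand edited reads (vertical axis) against the distance of the edit from the centre of the nearest UGCAUG in nt (horizontal axis, positive downstream). Points are libraries, lines are group means with SD of 3, and the grey line is the single Enzyme-only library; RBFOX2 is highest at 0 to 25 nt downstream (7.73, against 1.51 in Buffer-only and 2.4 in Enzyme-only).

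The groups did not overlap in this share in any of the 6 transcript regions. In 3'UTRs 7.25% ± 0.545 of RBFOX2 edited reads were near UGCAUG, against 3.38% ± 0.384 in Buffer-only and 3.48% in Enzyme-only. In introns within 500 nt of an exon the shares were 6.98% ± 0.497, 2.16% ± 0.222 and 2.76%, and in coding sequence 2.47% ± 0.227, 1.12% ± 0.210 and 1.58%. Sites near the motif carried 2.03 edited reads in RBFOX2 and 2.04 in Buffer-only and had median fractions of 7.97% and 7.83%, both overlapping. At sites with at least 2 edited reads the order of the median fractions turned, RBFOX2 minus Buffer-only being -2.64 points, and the groups overlapped (exact permutation p = 0.4). The share of these sites with at least 2 edited reads was 50.3% ± 2.44 in RBFOX2 and 36.9% ± 2.72 in Buffer-only, with 47.4% in Enzyme-only. Away from the motif it was 44.9% ± 1.68 and 34.5% ± 1.08. Other sequences differed less. Edited reads within 50 nt of GCACG, a weaker RBFOX2 sequence, were 1.99% ± 0.0781 of the RBFOX2 total and 2.61% ± 0.0509 of the Buffer-only total. For GCAUG not preceded by U the shares were 5.72% ± 0.143 and 5.06% ± 0.0293, and without the positions of both groups they overlapped. For UGUGUG, the known sequence of TDP-43, which also holds the secondary RBFOX2 sequence GUGUG, they were 4.33% ± 0.118 and 3.15% ± 0.102, with 4.01% in Enzyme-only.

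The base before the edited cytosine differed between the groups. In RBFOX2, 46.4% ± 0.133 of edited reads followed A and 32.7% ± 0.469 followed U, against 28.9% ± 0.444 and 24.9% ± 0.919 in Buffer-only. Edited reads after A numbered 28823 ± 1305 and 6959 ± 409, a ratio of 4.14. Fixed positions called in all 6 libraries weigh on the Buffer-only values. The MT-CYB position, which follows A, alone gave a mean of 2271 of these reads in RBFOX2 and 2069 in Buffer-only, and that of MT-ND5 gave 425 and 408. Edited reads after C numbered 6114 ± 304 and 5639 ± 360, which overlapped (exact permutation p = 0.3). Sites with A before and U after the cytosine showed the widest ratio of the 16 contexts, 5900 ± 235 against 704 ± 54.0. On the opposite strand 17.3% ± 0.719 of RBFOX2 sites and 16.8% ± 0.271 of Buffer-only sites followed A, with overlap. The Enzyme-only library lay between the groups, nearer to RBFOX2, with 75.1% of edited reads after A or U, against 79.1% ± 0.496 in RBFOX2 and 53.8% ± 0.502 in Buffer-only.

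The 3'UTR took the larger part of the added reads. Its edited reads were 30609, 30407 and 33081 in RBFOX2, against 7445, 8266 and 8571 in Buffer-only, a ratio of 3.88. They made up 50.5% ± 0.333 of gene-strand edited reads in RBFOX2 and 33.6% ± 0.275 in Buffer-only, and 41.8% in Enzyme-only. Coding sequence had 10609 ± 141 against 6087 ± 216, and introns further than 500 nt from an exon had 11090 ± 787 against 5141 ± 660. The coding reads include means of 2271 against 2069 at the 1 MT-CYB position and 425 against 408 at that of MT-ND5. The Enzyme-only library had 10530 coding and 12327 deep-intron edited reads, the latter above each RBFOX2 library. In the 3'UTR it had 22956, below each RBFOX2 library.

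**Figure D4:**
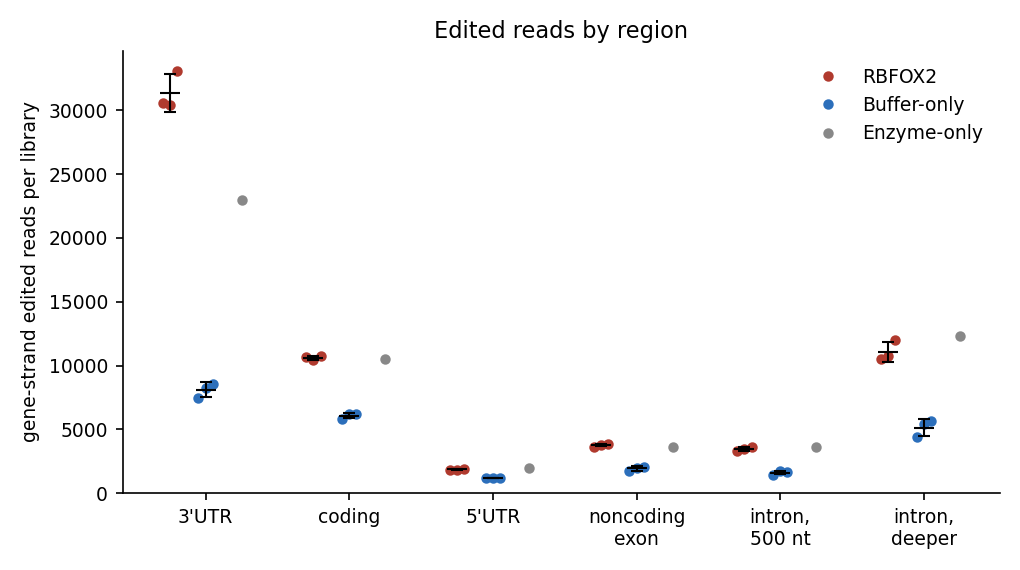
Gene-strand edited reads per library (vertical axis) by region of the transcript, with points for libraries and bars for mean and SD of 3. RBFOX2 lies above Buffer-only in each region, and the Enzyme-only library lies below RBFOX2 in the 3'UTR (22956 against 30407 to 33081) but not in deeper introns.

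Few positions recurred. Of the gene-strand positions called in any RBFOX2 library, 88014 were called in 1 library, 2310 in 2 and 388 in 3. Of the 388, 135 were absent from Buffer-only, lay in 114 genes and had 447 ± 12.9 edited reads per library at a pooled fraction of 3.03%. Of these 135 positions, 85.2% were in a 3'UTR, 33.3% were within 50 nt of UGCAUG and 97.0% followed A or U, and 11 were also called in Enzyme-only. Positions called in 1 RBFOX2 library and absent from Buffer-only were near UGCAUG in 5.55% of cases, and those called in 2 in 16.0%. The reverse class, positions in all 3 Buffer-only libraries and in no RBFOX2 library, held 13 positions, none of them near UGCAUG. Of positions called in 1 Buffer-only library and absent from RBFOX2, 2.38% were near UGCAUG. At such a share 13 positions are too few to compare. ZNF770, a zinc-finger gene, held 4 of the 135 positions, and TOMM20, RAB11A, CDH2 and GLIPR1 held 3 each. These genes were named after their counts were seen. Clusters also recurred, and 583 ± 15.3 clusters per RBFOX2 library overlapped one in each other RBFOX2 library and none in Buffer-only, against 22.7 ± 2.89 in the reverse case. Of the RBFOX2 ones, 14.5% ± 1.05 contained UGCAUG. None of the Buffer-only ones did, but they were too few to compare. Among clusters with at least 5 edited bases the share with UGCAUG was 8.02% ± 0.153 in RBFOX2, 1.22% ± 0.0296 in Buffer-only and 1.90% in Enzyme-only. Over all clusters the difference was smaller, RBFOX2 minus Buffer-only being 1.75 to 1.89 points with 1 library left out.

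Edited reads were then summed per gene over gene-strand sites and tested with edgeR's quasi-likelihood test. Of 14346 genes with a site, 645 passed the filter on low counts, and a gene could pass it through its RBFOX2 libraries alone. At an adjusted p under 0.05 (Benjamini-Hochberg over these genes), 66 were higher in RBFOX2 (10.2% of genes tested) and 53 were lower (8.22%). The test scales each library by its total and by a TMM factor, which assumes that most genes do not change. The totals had a ratio of 2.58 (above), and the TMM factors were 1.20 to 1.24 in RBFOX2 and 0.787 to 0.857 in Buffer-only. With both, the median log2 fold change over all genes tested was 0.14. Scaled to the opposite-strand edited reads, 399 genes were higher (61.9%) and 3 lower (0.465%), with a median of 1.85. A lower count minimum tested 3964 genes, of which 105 were higher (2.65%) and 47 lower (1.19%). In plain edited reads, the groups did not overlap, with RBFOX2 higher, in 404 of the 645 genes (62.6%). The log2 fold changes below are TMM-scaled unless another scaling is named and thus say how a gene moved relative to the rest, while folds against a floor and ratios are of plain edited reads, without scaling. Reads of a gene near UGCAUG are sums over the 3 libraries of a group, and Enzyme-only values are from 1 library. The number higher was 36, 24 and 20 without RBFOX2 replicate 1, 2 and 3 and 41 without Buffer-only replicate 3, and the number lower was 30 and 34 without RBFOX2 replicate 2 and 3. The filter then passed 334 to 339 genes without an RBFOX2 library and 1837 to 1886 without a Buffer-only library.

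The genes called lower carried nearly all of their edited reads at positions common to both groups. Their 53 members together held 5460 ± 160 edited reads in RBFOX2 and 5345 ± 272 in Buffer-only, and 94.6% and 96.8% of these were at positions of both groups. The 66 genes called higher held 2320 ± 205 and 90.0 ± 13.1 edited reads, with 958 in Enzyme-only, and 0.848% of the RBFOX2 reads were at positions of both groups. The classes were formed from these same counts. A gene with few Buffer-only reads can have few positions called in both groups, so these totals and shares are a description. Of the RBFOX2 reads of the genes called higher 83.2% were in 3'UTRs and 17.2% within 50 nt of UGCAUG, against 51.0% and 7.74% in the 526 genes not called. The share of Enzyme-only reads near UGCAUG was 6.89% in the genes called higher and 3.27% in those not called. All 66 were protein-coding genes, as were 594 of the 645 genes tested. Of the 53 called lower 33 were protein-coding, and 12 of 36 lncRNAs tested were among them, beside 8.22% of all genes tested.

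**Figure D5:**
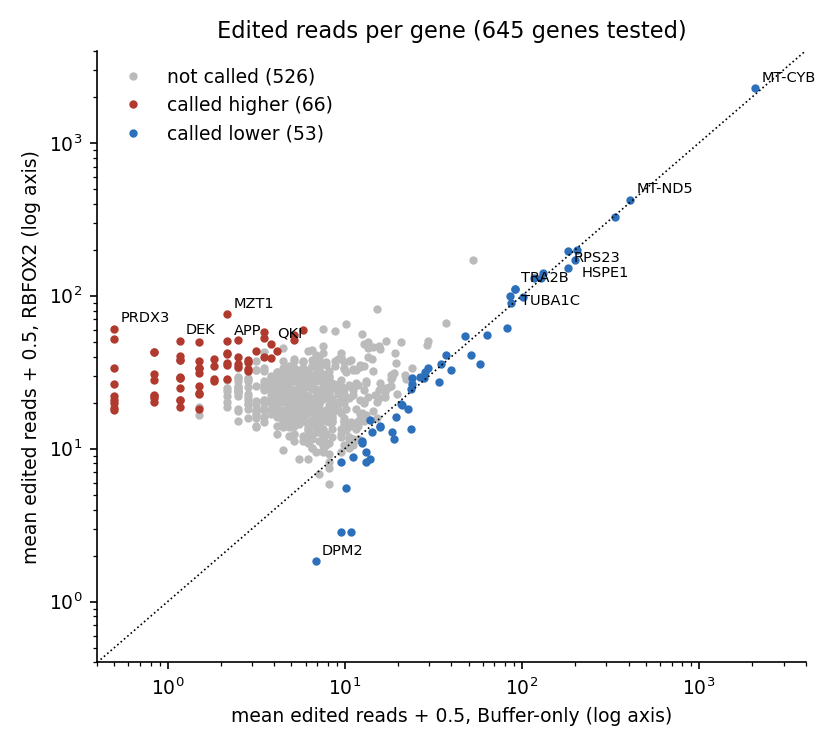
Mean edited reads per gene plus 0.5 in RBFOX2 (vertical, log axis) against Buffer-only (horizontal, log axis) for the 645 genes tested, coloured by the edgeR call, with equal counts on the dotted line. The 53 genes called lower lie along the dotted line, with 5460 edited reads in RBFOX2 and 5345 in Buffer-only in sum, and the 66 called higher lie at the upper left.

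The genes with the largest fitted increases had no edited read, or 1, in Buffer-only. They passed the filter on low counts through their RBFOX2 libraries alone. Their p-values are thus not independent support for the difference. PRDX3 had 43, 59 and 79 edited reads in RBFOX2 and 0 in each Buffer-only and in the Enzyme-only library (edgeR adjusted p = 0.000107). A floor of 3 reads was set over the Buffer-only group. Against it PRDX3 was at least 60.3-fold higher in plain reads and at least 3.98 higher on the log2 scale under TMM. These bounds and those below hold for called edited reads only. A site with 1 edited read was never called above 69 covering reads, so a count of 0 can miss edited reads. Of the PRDX3 reads in RBFOX2 50 were within 50 nt of UGCAUG. TOMM20, the gene of a receptor of the mitochondrial outer membrane, had 57, 50 and 49 against 0 in each Buffer-only library and 20 in Enzyme-only, at least 52.0-fold higher in plain reads and at least 3.77 on the TMM-scaled log2 scale (edgeR adjusted p = 0.000168). ANP32E, the gene of a histone chaperone, had 32, 31 and 36 against 0, at least 33-fold in plain reads and 3.11 on the TMM-scaled log2 scale, and the Enzyme-only library had more, 46, with no edited read near UGCAUG in either (edgeR adjusted p = 0.00147). LAPTM4A, FHL1, SDHD, TSPYL1, ZIC5 and VBP1 also had 0 in Buffer-only and were at least 26.0-, 21.7-, 20.3-, 19.3-, 18.0- and 17.3-fold higher in plain reads. On the TMM-scaled log2 scale these bounds ran from 2.77 for LAPTM4A to 2.18 for VBP1. All of the ZIC5 reads were in the 3'UTR, and 19 of them, summed over the 3 libraries, were near UGCAUG, while the single Enzyme-only library had 1 such read. TSPYL1 had the other order, with 1 such read over the RBFOX2 libraries and 9 in Enzyme-only. SDHD, which encodes a subunit of succinate dehydrogenase, had 21, 24 and 16 edited reads, none of them near the motif.

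Another 3 of these genes had 1 edited read over the Buffer-only libraries. H3-3B, one of the genes of histone H3.3, had 69, 18 and 41 edited reads in RBFOX2 against 1, 0 and 0. The ratio of plain reads was 128, with an exact 95% interval of 22.6 to 5095. That interval covers counting error of called reads and not edited reads at positions not called. Its fitted TMM-scaled log2 fold change was 5.08 ± 1.04 SE (edgeR adjusted p = 0.00291), a value that depends on the prior count when a group has 1 read. Of these reads 63 were near UGCAUG, and the Enzyme-only library had 2. ARF4, the gene of a small GTPase of vesicle traffic, had 28, 36 and 64 against 0, 0 and 1, with 44 near the motif, and the Enzyme-only library had 25, of which 20 were near the motif. CAPZA2, the gene of an actin-capping subunit, had 36, 34 and 21 against 0, 0 and 1, with none near the motif and 6 in Enzyme-only.

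The largest decreases called were in features with at most 31 edited reads over each group, apart from TLK2 and ENSG00000283773. DPM2, the gene of a regulatory subunit of dolichol-phosphate mannose synthase, had 1, 1 and 2 edited reads in RBFOX2 and 7, 6 and 6 in Buffer-only (log2 fold change -3.77 ± 0.62 SE, edgeR adjusted p = 0.000331), with 6 in Enzyme-only. TLK2, a kinase gene, had 18, 4 and 11 against 23, 15 and 17, and BEX1 had 9, 0 and 6 against 10, 11 and 8, at 1 position in all. RPL10P16 is a ribosomal protein pseudogene whose reads may belong to a copy, with 2, 1 and 4 against 6, 6 and 19. The 2 remaining features, ENSG00000277913 and ENSG00000283773, have no symbol in the annotation. The former had 2, 1 and 4 edited reads against 8, 9 and 10, and the latter 34, 32 and 40 against 60, 57 and 56. The groups overlapped in edited reads for TLK2 and BEX1 and not for the other 4 features. Scaled to the opposite strand, DPM2, RPL10P16 and ENSG00000277913 were the 3 genes still called lower.

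The genes that the study shows as targets are not independent evidence, since they were picked on such samples. APP, the gene of the amyloid precursor protein, had 69, 46 and 35 edited reads in RBFOX2 and 0, 4 and 1 in Buffer-only (log2 fold change 3.20 ± 0.73 SE, edgeR adjusted p = 0.00578), with 21 in Enzyme-only. Near UGCAUG it had 27 in RBFOX2, 3 in Buffer-only and 0 in Enzyme-only. DEPDC1, a cell division gene, had 19, 30 and 36 against 2, 1 and 9 and did not pass (log2 fold change 1.13 ± 0.69 SE, edgeR adjusted p = 0.285), with 26 in Enzyme-only. PKM, OGT and DCUN1D4 fell under the filter. PKM had 14, 7 and 7 against 4, 2 and 2, OGT had 11 in each RBFOX2 library against 4, 0 and 0, and DCUN1D4 had 13, 5 and 5 against 4, 4 and 6.

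The lists of splicing targets and RNA-binding proteins had few members tested, and their counts stand beside 10.2% of all genes tested called higher and 8.22% called lower. Of 28 genes with known RBFOX-regulated exons 5 were tested and none passed, with a median log2 fold change of 0.79 beside 0.14 over all genes tested. ENAH, an actin regulator, had 109, 51 and 85 edited reads against 12, 18 and 14 and 81 in Enzyme-only (log2 fold change 0.79 ± 0.38 SE, edgeR adjusted p = 0.173). The Enzyme-only total was within the RBFOX2 range, yet near UGCAUG ENAH had 81 edited reads over the RBFOX2 libraries, 0 in Buffer-only and 2 in Enzyme-only. Summed over its 3'UTR alone, ENAH had 84, 24 and 65 against 7, 7 and 12. It was called higher in the test per gene and region described further on (log2 fold change 1.51 ± 0.50 SE, edgeR adjusted p = 0.0393). Such a call was common there, with 75 of 193 3'UTRs tested called higher. PTBP2 had 32, 28 and 40 against 0, 8 and 5, and ATP5F1C had 9, 21 and 18 against 2, 8 and 4. Of the tissue splicing regulators 8 of 25 were tested and 1 was higher, QKI, with 43, 52 and 49 against 4, 0 and 6 (log2 fold change 2.13 ± 0.66 SE, edgeR adjusted p = 0.0335). QKI has 14 copies of UGCAUG in its annotated 3'UTR, and 2 of its RBFOX2 edited reads were near one. MBNL1, another regulator of the list, had 24, 39 and 29 against 6, 1 and 5. The 3'UTRs of MBNL1 and of DEPDC1, named above, did not pass in the test per gene and region (edgeR adjusted p = 0.0507 and 0.0961).

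Among the SR proteins 6 of 14 were tested, and 1 was lower under TMM. TRA2B had 130, 121 and 82 edited reads against 69, 103 and 99 (log2 fold change -1.37 ± 0.22 SE, edgeR adjusted p = 0.000313), and 0.34 when scaled to the opposite strand. SRSF11 had 59, 50 and 67 against 6, 7 and 12 and SRSF10 34, 34 and 33 against 2, 7 and 4, and neither passed. The SRSF10 3'UTR alone had 34, 25 and 23 against 2, 1 and 4. It was called higher in the test per gene and region (log2 fold change 2.31 ± 0.65 SE, edgeR adjusted p = 0.0183), beside 75 of 193 3'UTRs called higher there. Of the hnRNP proteins 12 of 25 were tested and 1 was lower, RALY, at -1.64 under TMM and 0.08 scaled to the opposite strand. HNRNPK had 48, 75 and 58 against 4, 16 and 1, and HNRNPU had 14, 53 and 42 against 7, 13 and 8. The HNRNPK 3'UTR alone did not pass per gene and region (edgeR adjusted p = 0.134). Of the TDP-43 and FET proteins 2 of 4 were tested and EWSR1 was lower, at -1.42 under TMM and 0.30 scaled to the opposite strand, while TARDBP did not pass. In the core spliceosome 3 of 36 were tested and none passed, with SF3B1 at 0.24 and DDX5 at 0.58.

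In the protein-handling and trafficking lists the counts stand beside 10.2% of all genes tested called higher, 8.22% called lower and a median log2 fold change of 0.14. In vesicle traffic 3 of 8 tested genes (of 43 listed) were higher, ARF4, RAB11A and VPS26A (23, 26 and 18 against 1, 2 and 0), with a median of 1.56. RAB11A, a GTPase of recycling endosomes, had 51, 41 and 38 against 1, 5 and 5 (log2 fold change 1.88 ± 0.58 SE, edgeR adjusted p = 0.0320), and RAB10 had 23, 20 and 56 against 6, 1 and 5. Of 27 chaperones 5 were tested, 2 were higher and 1 was lower. HSP90AA1 had 18, 39 and 66 against 5, 0 and 0 and HSPH1 29, 27 and 43 against 0, 0 and 3, while HSPE1 was the lower one, at -1.91 under TMM and -0.18 scaled to the opposite strand. In ubiquitin conjugation 1 of 9 tested genes was higher, RMND5A, a ligase subunit, with 31, 52 and 29 against 2, 0 and 0, and CUL5 (35, 33 and 28 against 4, 1 and 3) did not pass. In nuclear transport 2 of 8 tested were higher, the import receptor IPO7 (34, 26 and 27 against 0, 2 and 0, with 38 in Enzyme-only) and the tRNA exportin XPOT (18, 17 and 18 against 1 in each), while XPO1, TNPO1 and TPR, which had more edited reads over the 6 libraries than XPOT, did not pass. VPS26A, IPO7 and XPOT, like EIF4G2 and YWHAG below, were named after their values were seen, to complete the counts, and their calls were not followed through the alternatives.

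Chromatin and cell division genes followed. Of the chromatin proteins and cohesin 3 of 16 tested genes (37 listed) were higher, with a median of 0.68, beside 10.2% and a median of 0.14 over all genes tested. DEK, a DNA-binding chromatin protein, had 58, 33 and 60 against 2, 0 and 0, with 15 in Enzyme-only (edgeR adjusted p = 0.00181), and 39 of its RBFOX2 reads were near UGCAUG against 0 in Buffer-only and in Enzyme-only. TBL1XR1, a corepressor subunit, had 33, 37 and 83 against 2, 1 and 3, and SMC1A, a cohesin subunit, had 59, 44 and 49 against 3, 7 and 4. Of 30 cell division genes 12 were tested and 2 were higher, with a median of 1.05. MZT1, a factor of the gamma-tubulin ring complex, had 41, 83 and 103 against 0, 2 and 3 (log2 fold change 3.77 ± 0.66 SE, edgeR adjusted p = 0.000661), and CDK1, the mitotic kinase, had 46, 25 and 33 against 0, 5 and 0. ASPM had 26, 45 and 31 against 4, 4 and 10 and did not pass.

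In the cytoskeleton list 8 of 36 genes were tested, 2 were higher (CAPZA2 and KIF5B) and 1 lower, and the counts of this and the following lists stand beside 10.2% higher and 8.22% lower of all genes tested. KIF5B, a kinesin gene, had 25, 28 and 45 against 2, 1 and 4, ACTR2 had 39, 20 and 28 against 3, 3 and 8 without passing, and TUBA1C, the lower one at -1.39 under TMM and 0.33 scaled to the opposite strand, had 112, 122 and 98 against 74, 110 and 88. Of 34 translation factors 7 were tested and 2 were higher, EIF1AX with 48, 73 and 57 against 4, 8 and 4 and EIF4G2 with 40, 29 and 26 against 2, 3 and 2. EIF4G3 had 52, 61 and 30 against 9, 10 and 18, and EIF2S3 had 30, 27 and 38 against 3, 5 and 1. Neither passed per gene. The EIF2S3 3'UTR alone was called higher in the test per gene and region (log2 fold change 2.97 ± 0.85 SE, edgeR adjusted p = 0.0189), beside 75 of 193 3'UTRs called higher there. The 3'UTRs of ACTR2, CUL5 and AMD1 did not pass in that test (edgeR adjusted p = 0.123, 0.0522 and 0.0758). Of 78 cytoplasmic ribosomal proteins 3 were tested and RPS23 was lower, with 122, 167 and 163 against 168, 192 and 183 (-1.96 under TMM and -0.23 scaled to the opposite strand), and RPL31 and RPL15 did not pass. The polyamine pathway had 2 of 10 genes tested and 1 higher, AZIN1, an inhibitor of antizyme, with 32, 55 and 28 against 1, 2 and 1. AMD1, of the same pathway, had 28, 22 and 43 against 5, 1 and 5, and OAZ2 fell under the filter, with 13, 10 and 6 against 1, 2 and 0.

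The remaining lists had few members tested, beside the same 10.2% higher and 8.22% lower. No gene of glycolysis passed the filter, GPI having 14, 7 and 5 against 6, 0 and 9 and PGK1 9, 14 and 3 against 1, 6 and 3. Of the 14-3-3 proteins and calmodulins 4 of 10 were tested and 1 was higher, YWHAG, with 34, 29 and 23 against 2, 0 and 0, while CALM2, YWHAZ (40, 19 and 36 against 8, 19 and 15) and YWHAE (36, 40 and 17 against 0, 6 and 5) did not pass. Of the mitochondrially encoded genes 3 were tested and 2 were lower, MT-CYB at -1.56 and MT-ND5 at -1.63 under TMM, and 0.17 and 0.10 scaled to the opposite strand. The third, MT-CO1, had 11, 20 and 20 edited reads against 11, 10 and 21. Among nuclear noncoding RNAs HOXA-AS3 was the 1 gene called lower of 5 tested (-1.80 under TMM and -0.07 scaled to the opposite strand), and NEAT1 (27, 59 and 53 against 16, 19 and 10) and KCNQ1OT1 (19, 33 and 10 against 7, 6 and 11) did not pass. Of 9 HEK293 markers 8 had a site, and 1 was tested and higher, CDH2, with 41, 22 and 45 against 0, 3 and 2, 53 of them near UGCAUG. NEFM and NEFL, neurofilament genes of the same list, fell under the filter. Of the 18 listed markers of other cell types 1 had a site, and none passed the filter. Over all genes, 645 of 14346 with a site passed it. At such a share the filter cannot check the label, and edited reads are not expression.

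Of the genes named above, 19 lost their call in edgeR when a single library was left out and they were still tested. AZIN1 and RMND5A lost it without RBFOX2 replicate 2 (edgeR adjusted p = 0.0639 and 0.0731), TBL1XR1 without RBFOX2 replicate 3 (0.0536), TLK2 without Buffer-only replicate 1 (0.0697), and RALY and RPL10P16 without Buffer-only replicate 3 (0.113 and 0.205). CDH2, EIF1AX and SMC1A lost it without Buffer-only replicate 1 or 3 (highest edgeR adjusted p of 0.0733, 0.1 and 0.115), HSP90AA1 without Buffer-only replicate 2 or 3 (0.143), DPM2 without any 1 Buffer-only library (0.190), and HOXA-AS3 without RBFOX2 replicate 3 or Buffer-only replicate 1 or 3 (0.115). HSPH1, QKI, CDK1, KIF5B, RAB11A and EWSR1 lost it without any of 4 or 5 libraries (highest edgeR adjusted p of 0.114, 0.104, 0.162, 0.184, 0.136 and 0.206) and BEX1 without any of the 6 (0.181). PRDX3, TOMM20, ANP32E, H3-3B, ARF4, DEK, MZT1 and APP were called in each such fit that tested them. Other settings also ended calls of genes named as higher. Without the positions of both groups QKI, EIF1AX, RAB11A, SMC1A and HSP90AA1 were not called (edgeR adjusted p = 0.0876, 0.0542, 0.101, 0.0817 and 0.0817). By the number of sites QKI and EIF1AX were not called (0.0540 and 0.166), with at least 2 edited reads per site KIF5B and CDK1 (0.0595 and 0.0504), with at least 20 covering reads CDK1 (0.0693), and in DESeq2 KIF5B (adjusted p = 0.0509).

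The share of genes called higher was then set beside the number of UGCAUG copies in the annotated 3'UTR, as a description. Of 192 tested genes with no UGCAUG in the annotated 3'UTR, 5.21% were called higher, of 168 with 1 copy 14.9%, and of 231 with 2 or more 13.4%, beside 10.2% of all genes tested. The medians of their log2 fold changes were 0.03, 0.38 and 0.40. Genes with more copies also had longer 3'UTRs (medians of 2037, 3382 and 5328 nt). Among genes with 3'UTRs of up to 3628 nt, the shares called higher were 5.37% with no copy, 23.2% with 1 and 21.2% with more, and among longer ones 4.65%, 4.11% and 11.2%. The median ratio of RBFOX2 to Enzyme-only edited reads was 1.22, 1.56 and 1.44 over the same 3 classes.

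When edited reads were summed per gene and region, 348 features were tested, 78 were higher (22.4%) and 43 lower (12.4%), with a median of 0.59. The calls divided by region. Of 193 3'UTRs, 75 were higher and 7 lower, with a median log2 fold change of 1.62. Of 103 genes' introns 2 were higher and 20 lower, with a median of -0.22, and of 18 coding sequences none was higher and 6 were lower, with a median of -1.14. These features mostly come from different genes, so the division is not one within transcripts. In 5 genes both 3'UTR and introns were tested, and the 3'UTR had the higher log2 fold change in 2 (median difference -0.058). No gene was tested in both 3'UTR and coding sequence. Scaled to the opposite-strand edited reads, 176 of the 348 features were higher and 2 lower, with a median of 1.83. The number higher was 48 without RBFOX2 replicate 2 and 131 without Buffer-only replicate 1, and the number lower was 11, 9 and 9 without RBFOX2 replicate 1, 2 and 3.

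The edit fraction of a gene, tested over 1138 genes with at least 20 covering reads in each library, separated 1 gene (0.0879%), and it was lower. None was higher at an adjusted p under 0.05 in edgeR, and before adjustment 65 genes were higher and 38 lower at p under 0.05. The gene called was CALM2, a calmodulin gene, at 1.53%, 1.26% and 1.58% in RBFOX2, against 11.2%, 38.7% and 24% in Buffer-only (log2 odds ratio -4.14 ± 0.47 SE, edgeR adjusted p = 0.0054). Its edited reads had the other order, with 84, 22 and 88 in RBFOX2, against 11, 12 and 6 in Buffer-only (edgeR adjusted p = 0.192). The counts divided by region and position. In its 3'UTR CALM2 had 79, 19 and 77 edited reads against 0 in each Buffer-only library and was called higher per gene and region (edgeR adjusted p = 0.00241), and in its 5'UTR it had 1, 3 and 11 against 9, 12 and 6 without passing (log2 fold change -2.06, edgeR adjusted p = 0.0621). Of the 29 Buffer-only edited reads 26 were at positions of both groups, and without those positions the gene was called higher (log2 fold change 3.83, edgeR adjusted p = 0.0150). The RBFOX2 libraries had sites called over 5490, 1744 and 5586 covering reads and the Buffer-only libraries over 98, 31 and 25. Of the RBFOX2 edited reads 52 were near UGCAUG, against none in Buffer-only. In the edit fraction test no gene was called without the positions of both groups, without RBFOX2 replicate 3 or without Buffer-only replicate 3. With a minimum of 50 covering reads 478 genes were tested, CALM2 not among them, and 1 other gene was called lower. Without RBFOX2 replicate 2 the number lower was 2.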

How the data were processed

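RNA edits were measured in methanol-fixed HEK293T cells with the NEBNext Single Cell/Low Input kit, for which no source used here says that strand was kept. Per the labels and the study's methods, the authors trimmed reads with cutadapt, removed reads of repeats, aligned them with STAR, which the submitters' notes give as 2.4.0, to hg38, called C-to-U sites with SAILOR after removing dbSNP positions, and called clusters with FLARE (false discovery rate 0.1, merging within 15 nt). The deposited site lists give a SAILOR score, of which the authors kept values above 0.5, and counts of edited and covering reads, and sites with an edit fraction of 0.8 or more were left out by the authors. The deposited cluster lists give the counts of edited bases, an edit fraction and the mean depth (coverage signal) per cluster. A list holds called sites only.

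Here each site was placed on hg38 with Gencode 44. Genes on the same strand overlapped at 7.96% of gene-strand positions. Near a motif means within 50 nt of its centre on the same strand. The motifs searched on the strand of the site were UGCAUG, the related GCACG, the core GCAUG where no U precedes it, and the repeat UGUGUG. Library values were compared with exact two-sided permutation tests. Edited reads per gene and per gene and region were tested with edgeR 4.0.16 (quasi-likelihood, TMM, filterByExpr with a count of 10 and a total of 15, Benjamini-Hochberg at 0.05), and the edit fraction per gene with edgeR on edited and unedited reads, for genes with 20 covering reads in each library. Both fits were tested on simulated data first. The test per gene recovered 1.56% of simulated 2-fold and 34.4% of 4-fold changes, with 1 false call in 517 unchanged genes. These changes went up and down in equal number. The simulation thus does not cover a shift of most genes in one direction or the choice of scaling. The edit fraction test recovered 4% of 2-fold and 49% of 4-fold changes in odds, with 0 false calls in 938. A gene that did not pass is thus not shown to be unchanged. Bounds and intervals of ratios cover counting error of called edited reads only, without molecular identifiers. The deviations of libraries with the same number correlated at -0.095, -0.077 and -0.039, so the numbers were not taken as pairs.

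Named genes were the study's examples, the 12 largest increases and 6 largest decreases among called genes whose groups did not overlap in edited reads scaled by the library's total, any gene called in the edit fraction test, and the members of fixed lists with the most edited reads. Some genes and positions that these rules name are not reported here. The members and lists were chosen with earlier results of these data known. Alternatives were DESeq2 1.42.0, other scalings, filters and site minimums, the replicate block and leaving out each library. Settings that scaled to, or combined other choices with leaving out, the positions of both groups were chosen after seeing the data.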

Additional observations from a re-analysis of the deposited data

Results flagged for a closer look

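The Enzyme-only library at 1 ng takes no part in the comparison and had 1 sample, so its values carry no test. Several were above every Buffer-only library. It held 54979 edited reads on the gene strand and 22956 in 3'UTRs, 75.1% of its gene-strand edited reads followed A or U, and 22370 clusters were called in it. Its share of edited reads near UGCAUG was 2.81%, also above each Buffer-only library, at 2.49% ± 0.168 (SD, n = 3), and below each RBFOX2 library, at 6.20% ± 0.317 (SD, n = 3).

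Sites in no annotated gene on either strand lie outside the tests per gene. They held 3569 ± 243 edited reads in RBFOX2 and 2745 ± 214 in Buffer-only (SD, n = 3 each, not overlapping), and 3800 in Enzyme-only. The groups of 3 libraries are too small for a search for outlying libraries.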

How the results depend on the processing

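The direction of the calls per gene depends on the scaling, since most tested genes had more edited reads in RBFOX2. Called higher and lower were 389 and 3 genes with no scaling, 399 and 3 scaled to the opposite strand, and 392 and 3 scaled to the positions of both groups. A lower count minimum called 105 higher, and no filter 130 and 24. Counting sites called 13 and 12, sites with at least 2 edited reads left 28 lower, and leaving out the positions of both groups 43 and 15. Leaving these out with a lower count minimum gave 104 and 13, and with no scaling 412 and 1. Without 1 library the range was 20 to 74 higher and 30 to 43 lower. DESeq2 kept 58 of the 66 and 46 of the 53 calls.

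Per gene and region, DESeq2 called 121 higher, and 170 and 2 were called with no scaling, 176 and 2 scaled to the opposite strand, 172 and 2 scaled to the positions of both groups, 163 and 8 with no filter, and 4 and 1 by sites. With at least 2 edited reads 11 were lower, without the positions of both groups 47 and 9, these left out with a lower minimum 6 lower, and with no scaling 182 and 0. Without 1 library the range was 48 to 131 higher and 9 to 55 lower. In the edit fraction test 2 genes were lower with at least 2 edited reads, 0 without the positions of both groups, and 0 to 2 without 1 library.

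With the replicate number as a block, 31 genes were higher and 39 lower, and 53 and 25 per gene and region. The labels do not say that the numbers pair the slides, and no library correlated best with its own number. Under the block 10 genes named as higher and 4 named as lower lost their call. Of the genes named as lower, 9 lost it with no filter, 3 with a lower count minimum and 3 with at least 2 edited reads per site.

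Some library differences (RBFOX2 minus Buffer-only) turned. Opposite-strand sites differed by -2.33 at sites with at least 2 edited reads and by -232 to 217.5 without 1 library. At sites with at least 2 edited reads the median fraction differed by -0.54 points on the gene strand, -0.063 in coding sequence, -0.099 in 5'UTRs and -2.64 near UGCAUG. Without 1 library the coding difference ranged from -0.090 to 0.16 and that near UGCAUG from -0.20 to 0.40. Without the positions of both groups the pooled fraction differed by 0.096 points and the edited reads per site by 0.27.

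The log2 fold changes of genes called lower turned with the scaling. With no scaling, scaled to the opposite strand and scaled to the positions of both groups they were 0.30, 0.34 and 0.32 for TRA2B, 0.041, 0.080 and 0.061 for RALY, 0.28, 0.30 and 0.28 for EWSR1, 0.29, 0.33 and 0.31 for TUBA1C, 0.13, 0.17 and 0.15 for MT-CYB and 0.059, 0.097 and 0.075 for MT-ND5. For genes not called they were 1.53, 1.58 and 1.56 for RPL15, 1.17, 1.22 and 1.19 for YWHAZ, 0.28, 0.32 and 0.29 for MT-CO1, 1.62, 1.64 and 1.62 for NEAT1 and 1.36, 1.40 and 1.38 for KCNQ1OT1. Without the positions of both groups TRA2B turned to 0.69, SF3B1 to -0.046, TPR to -0.13 and NEAT1 to 0.049. These left out with a lower minimum gave 1.17 for TRA2B, 1.78 for RPS23, 0.13 for RPL15, 0.83 for TUBA1C and 0.58 for NEAT1, and with no scaling 2.56 for TRA2B, 1.17 for YWHAZ, 2.01 for NEAT1 and 1.36 for KCNQ1OT1. DESeq2 gave 0.035 for RPL15 and 0.038 for NEAT1. A lower minimum gave 0.22 for RPL15, 0.24 for NEAT1 and 0.019 for KCNQ1OT1, no filter 0.58, 0.61 and 0.38 for these and 0.19 for YWHAZ, and at least 2 edited reads 0.39 for RPL15 and 0.45 for NEAT1. At 20 covering reads NEAT1 was 0.083 and EIF4G3 -0.027. Without 1 library, ATP5F1C ranged from -0.10 to 0.81, RPL31 from -0.32 to 0.78, RPL15 from -0.42 to 0.87, TPR from -0.053 to 0.47, NEAT1 from -0.23 to 0.39 and KCNQ1OT1 from -0.37 to 0.24. The cause of these turns was not tested.

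Sites carried few edited reads, and coverage of positions that were not called is not known, and genes with 0 edited reads in a group are not known to have been covered there.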
